A study of Mus musculus with 2 samples.

Results

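The genes described here encode the proteins of the cytoplasmic ribosome. They were taken by name from a table of mRNA levels in mouse embryonic fibroblasts (MEFs), as every entry with a symbol of the form Rpl, Rps or Rplp followed by a number, whatever its status, with Rpl10l and the Rps6k kinases left out. The rule matched 84 of 29126 entries, and 83 of them carried the status OK. Of the 84 entries, 76 were canonical subunits, 46 of the large and 30 of the small subunit. Another 7 were paralogs of a canonical subunit (Rpl39l, Rps4y2, Rpl3l, Rpl22l1, Rps27l, Rpl7l1 and Rpl36al). The last, Rps19bp1, encodes a protein that binds a small-subunit protein and is matched only by its name.

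The ribosome is built from a small subunit, which reads the messenger RNA, and a large subunit, which joins amino acids into a chain. Each subunit holds ribosomal RNA and one copy of most of its proteins, so cells make these proteins in matched amounts, from messenger RNAs that are among the most abundant in a growing cell. Most of the genes are active in every tissue, and a few have paralogs, some of them copied back into the genome from a spliced messenger RNA, that are used mainly in tissues such as testis or striated muscle.

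The study asked how loss of DNA methylation changes chromatin and gene expression, and RNA was sequenced from Dnmt1+/+ and Dnmt1-/- MEFs, 1 library of each. Dnmt1 copies DNA methylation onto new strands when DNA is replicated. The cells called Dnmt1-/- carry 2 copies of an allele with reduced function, and both lines also lack the gene for p53. The lines were derived in earlier work, and each genotype is 1 line, so genotype and line cannot be told apart. Levels are RPKM, the reads on a transcript scaled to its length and to the depth of the library, and a change is the difference of log2(RPKM + 0.1), Dnmt1-/- minus Dnmt1+/+, a scale on which differences between low values shrink. With 1 library per genotype there is no replicate check, and no p-value, interval or detection limit is given. An entry was kept when it had a symbol, the status OK and at least 1 RPKM in either library. The 11244 entries kept had a median change of -0.14.

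Dnmt1 itself was at 65.2 RPKM in Dnmt1+/+ and 14.5 RPKM in Dnmt1-/- MEFs. Of 12 fibroblast markers, 11 were kept, and their summed level was 7076 RPKM in Dnmt1+/+ and 4651 RPKM in Dnmt1-/- MEFs, 7 of the 11 being lower and 4 higher. Thy1 was at 4.84 and 0.129 RPKM, and Pdgfra at 6.95 and 18.7 RPKM. The blood cell marker list summed to 0.604 RPKM in Dnmt1+/+ and 3.75 RPKM in Dnmt1-/- MEFs. For the endothelial list the sums were 0.461 and 0.679 RPKM, and for the epithelial list 7.23 and 1.86 RPKM. The lines also differed in sex-chromosome transcripts. Xist was at 0.00648 RPKM in Dnmt1+/+ and 37.0 RPKM in Dnmt1-/- MEFs, while the Y-linked Ddx3y, Eif2s3y and Kdm5d, at 5.90 to 18.8 RPKM in Dnmt1+/+ MEFs, had values of 0 in the other line. The part of these differences in the values below was not tested.

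Canonical ribosomal protein genes were abundant in both libraries. Their median level was 299 RPKM in Dnmt1+/+ and 206 RPKM in Dnmt1-/- MEFs, against medians of 11.3 and 10.3 RPKM over all kept entries. In Dnmt1+/+ MEFs 65 of the 76 were above 100 RPKM, and in Dnmt1-/- MEFs 61 were. The most abundant was Rpl41, which encodes the smallest protein of the large subunit, at 2183 RPKM in Dnmt1+/+ and 1690 RPKM in Dnmt1-/- MEFs. Rpl8, whose protein lies close to the site where amino acids are joined, was at 2025 and 1562 RPKM. The most abundant small-subunit gene was Rps18, at 1658 and 1603 RPKM. At the other end, 6 canonical genes were under 50 RPKM in each library. The lowest in Dnmt1+/+ MEFs were Rpl21, at 5.89 and 7.26 RPKM, Rpl7a, at 6.33 and 3.09 RPKM, and Rpl29, at 26.3 and 32.2 RPKM. In Dnmt1-/- MEFs Rpl17, at 19.4 RPKM, took the place of Rpl29 among the 3 lowest. The order of the genes was nearly the same in the 2 libraries, with a Spearman correlation of 0.971 across the 76 genes, which share both libraries and are not independent replicates.

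**Figure D1:**
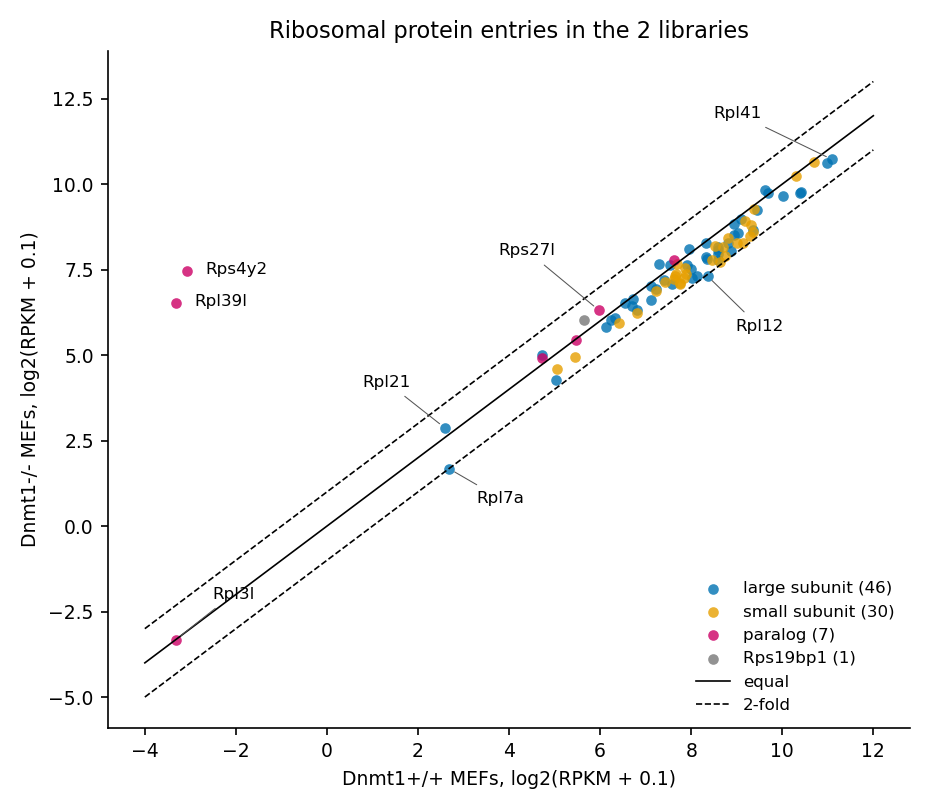
Level of each of the 84 entries in Dnmt1+/+ MEFs (x axis) and Dnmt1-/- MEFs (y axis), both as log2(RPKM + 0.1), with 1 point per entry coloured by class, a solid line for equal levels and dashed lines for a 2-fold difference. Most canonical subunits sit just under the line of equal levels, Rps4y2 and Rpl39l stand far above it, and Rpl3l is listed at 0 in both libraries.

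Most canonical subunits were lower in Dnmt1-/- MEFs, by a modest amount. Their median change was -0.42, against -0.14 over all kept entries, and their summed level was 0.770 times that in Dnmt1+/+ MEFs. A lower value was found for 69 of the 76, and for 59.6% of all kept entries. Of the 76, 59 lay below the median of all. Few changes were large. Past 2-fold, 2 canonical genes were lower (Rpl12 and Rpl7a, 2.63% of the 76) and 0 higher, beside 10.9% lower and 8.47% higher among all kept entries. Neither gene stays past 2-fold once the median change of all kept entries is subtracted (-0.91 and -0.87), nor does Rpl7a with a pseudocount of 1 (-0.84). Past 1.5-fold, 21 were lower and 0 higher, beside 23.7% and 14.1% of all. In bulk RNA, fewer cells of a type and less RNA per cell cannot be told apart.

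Other abundant genes had a median change near 0. The 573 kept entries with a mean of at least 100 RPKM that are not ribosomal protein genes had a median change of 0.05, and 267 of them were lower. All 83 kept ribosomal protein entries together held 8.73% of the summed RPKM of named entries in Dnmt1+/+ and 6.95% in Dnmt1-/- MEFs.

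**Figure D2:**
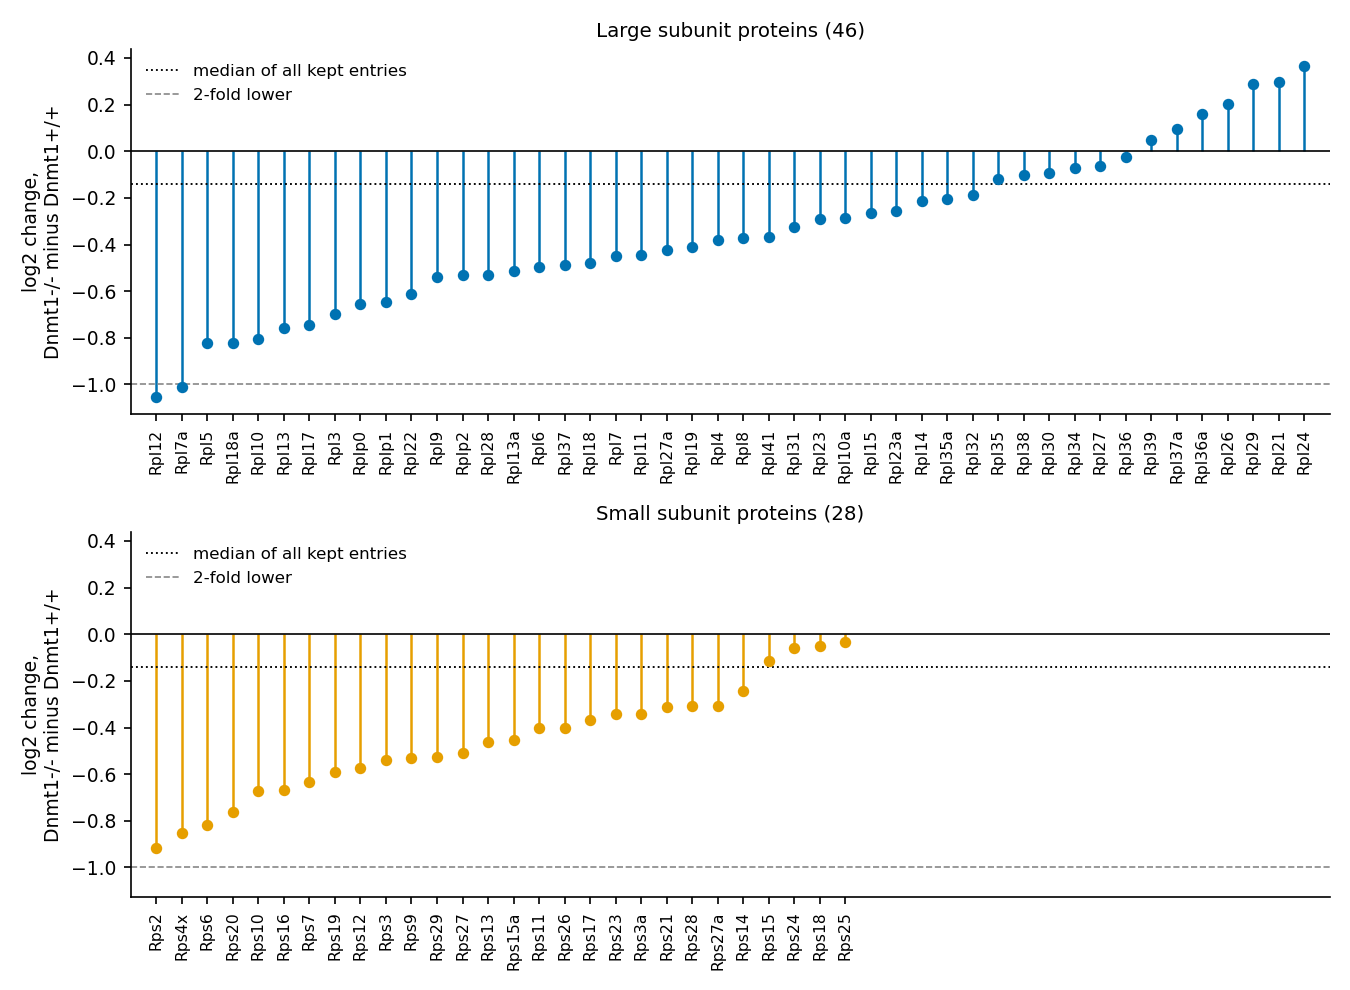
Change of each canonical subunit on the log2(RPKM + 0.1) scale, Dnmt1-/- minus Dnmt1+/+, ordered from lowest to highest within the large subunit (upper panel, 46 genes) and the small subunit (lower panel, 28 of the 30 genes). The dotted line is the median of all kept entries at -0.14 and the dashed line is 2-fold lower, which Rpl12 and Rpl7a pass, and the 7 genes above 0 are all of the large subunit.

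Large-subunit genes had a median change of -0.38, and 39 of 46 were lower. Rpl12, whose protein forms part of the base of the ribosomal stalk, was at 328.6 RPKM in Dnmt1+/+ and 158.1 RPKM in Dnmt1-/- MEFs, a change of -1.05. Rpl7a, at the low levels given above, had a change of -1.01. The stalk itself, which recruits translation factors that use GTP, is made by Rplp0, Rplp1 and Rplp2, and all of them were lower. Rplp0 was at 1361 and 864 RPKM (-0.66), Rplp1 at 1350 and 863 RPKM (-0.65), and Rplp2 at 449 and 310 RPKM (-0.53). Rpl5 and Rpl11 encode the proteins that carry a small ribosomal RNA into the large subunit and that, when free, bind the p53 regulator Mdm2. Rpl5 was at 385 and 218 RPKM (-0.82), and Rpl11 at 319 and 234 RPKM (-0.45). The deposited loci of Rplp0 (71.6 kb) and Rpl5 (86.6 kb) are far wider than the genes (4.26 and 8.50 kb) and overlap Pxn and Fam69a. Loci of over 10 kb were listed for 9 of the 84 members. What part of their RPKM comes from outside the genes was not tested.

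The 7 canonical genes with a higher value in Dnmt1-/- MEFs were all large-subunit genes, and none reached 1.5-fold. Rpl24, which lies at the face that meets the small subunit, was at 157 and 202 RPKM, a change of 0.37. Rpl21 and Rpl29, both among the lowest in level, followed at 0.30 and 0.29. Rpl26 was at 790 and 909 RPKM (0.20) and Rpl36a at 246 and 275 RPKM (0.16). Rpl37a and Rpl39 had changes of 0.10 and 0.05. Relative to the median change of all kept entries, another 10 canonical genes, among them Rpl36 and Rpl27, also lay above it.

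Every small-subunit gene was lower in Dnmt1-/- MEFs, 30 of 30, with a median change of -0.49. The values ran from -0.92 for Rps2 to -0.04 for Rps25. Rps2, which sits where messenger RNA enters the ribosome, was at 394.6 and 209.0 RPKM. Rps4x, an X-linked gene described further with its paralog, was at 562.7 and 311.3 RPKM, a change of -0.85. Rps6, the subunit phosphorylated by the S6 kinases when growth signalling is active, was at 629 and 357 RPKM (-0.82). At the other end Rps18 and Rps25 barely differed between the libraries, with Rps18 at -0.05.

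Canonical subunits whose names fall outside the rule were also lower. Rpsa, also known as a laminin receptor, was at 581 RPKM in Dnmt1+/+ and 295 RPKM in Dnmt1-/- MEFs (-0.98). Fau, which encodes a ubiquitin-like protein fused to a small-subunit protein, was at 191 and 126 RPKM (-0.61). Gnb2l1, the scaffold protein Rack1, was at 1178 and 968 RPKM (-0.28). Rps19bp1, not a subunit, was at 49.96 and 65.33 RPKM (0.39). In 3 of the 84 entries the symbol shares its row with others (Rpl30 with Gm12191, Rpl34 with Rpl34-ps1, and Rpl13a with Mir5121 and Snord33), and their values cannot be split. Without these entries the median change of the canonical genes was -0.43 over 73 genes.

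The X-linked canonical genes were split. Rpl10, whose protein joins the large subunit late in its assembly, was at 279 and 160 RPKM (-0.80), and Rps4x was lower as given above, while Rpl36a and Rpl39 were slightly higher. With 2 genes lower and 2 higher, their median of -0.38 lies in the gap between them and describes none of the 4 genes. The median was -0.39 over the 394 kept X-linked entries and -0.42 over the 72 autosomal canonical genes. Among the 10846 kept autosomal entries the median was -0.13.

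The paralogs differed from the canonical genes and from each other. The only members past 2-fold higher, 2 of 83 beside 8.47% of all kept entries, were Rpl39l and Rps4y2. Both passed the filter on low values only through the Dnmt1-/- library, so among kept entries they had to be higher there. Rpl39 encodes a short protein that lines the tunnel through which the new chain leaves the ribosome, and Rpl39l, known for its expression in testis, encodes a near copy. Rpl39l lies at chr16:10170319-10175004 on the plus strand (NCBIM37, the mm9 assembly), with 3 exons in GENCODE M1. It was listed at 0 RPKM in Dnmt1+/+ and was at 92.7 RPKM in Dnmt1-/- MEFs. Rpl39, on the X chromosome, was at 825.5 and 854.4 RPKM. In Dnmt1-/- MEFs Rpl39l therefore made up 9.79% of the summed RPKM of the pair, a sum of 825.5 RPKM in Dnmt1+/+ and 947.1 RPKM in Dnmt1-/- MEFs.

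Because the genes of a pair resemble each other, the coding sequences are printed to show how far their reads can be told apart. Both run to 156 bases, 5′ to 3′, from NCBIM37 through GENCODE M1, and capitals mark the 23 bases at which they differ.
Rpl39l: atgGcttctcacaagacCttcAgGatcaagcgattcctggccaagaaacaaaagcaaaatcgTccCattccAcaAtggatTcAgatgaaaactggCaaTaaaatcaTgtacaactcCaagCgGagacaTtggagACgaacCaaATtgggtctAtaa
Rpl39: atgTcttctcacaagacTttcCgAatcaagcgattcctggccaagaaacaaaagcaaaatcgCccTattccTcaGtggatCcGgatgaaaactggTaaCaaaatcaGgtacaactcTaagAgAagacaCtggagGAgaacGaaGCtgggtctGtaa
The sequences are 85.3% identical and share 0 exact stretches of 50 bases, the length of a read. None of the 50-base words of the Rpl39l coding sequence occurs at another place in the genome, so a read without mismatches from the coding sequence of Rpl39 could not be placed on it. The rest of the 805-base Rpl39l transcript was not compared, and reads with mismatches were not considered.

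With a pseudocount of 0.01 Rpl39l had the largest change of these 2 paralogs, 13.18 against 12.57 for Rps4y2. On the log2(RPKM + 0.1) scale the member with the largest change was Rps4y2. Despite its symbol it lies on chromosome 6, at chr6:148303178-148304120 on the plus strand, as a single exon, and it resembles a retrocopy of the X-linked Rps4x, which has 7 exons. Rps4y2 was at 0.0190 RPKM in Dnmt1+/+ and 176.5 RPKM in Dnmt1-/- MEFs. In Dnmt1-/- MEFs it made up 36.2% of the pair, and the pair together was at 562.7 RPKM in Dnmt1+/+ and 487.9 RPKM in Dnmt1-/- MEFs, a ratio of 0.867, while Rps4x alone was at 311.3 RPKM in Dnmt1-/- MEFs. The start of each coding sequence is shown for the same reason as above, with the 33 differing bases of the first 156 in capitals.
Rps4y2: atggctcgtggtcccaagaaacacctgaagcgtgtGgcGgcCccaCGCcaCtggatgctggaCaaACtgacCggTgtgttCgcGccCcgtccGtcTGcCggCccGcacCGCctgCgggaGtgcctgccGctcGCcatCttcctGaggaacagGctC
Rps4x: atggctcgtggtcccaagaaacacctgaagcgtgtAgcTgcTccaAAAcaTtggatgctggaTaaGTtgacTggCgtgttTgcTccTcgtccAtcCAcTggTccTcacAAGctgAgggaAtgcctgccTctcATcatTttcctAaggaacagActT
Over their whole length the coding sequences are 79.8% identical and share 0 words of 50 bases, and 18.0% of the words of Rps4y2 occur at 1 other place in the genome. The deposited locus of Rps4y2 is far wider than the gene, 396.9 kb (chr6:147995938-148392874), and overlaps 7 other entries, among them Ergic2 at 20.03 and 25.90 RPKM, and what part of its RPKM comes from outside the single exon was not tested.

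The germ cell markers were read beside these paralogs. The list of 10 markers summed to 1.33 RPKM in Dnmt1+/+ and 32.8 RPKM in Dnmt1-/- MEFs. Only 3 of them were kept, and these were past 2-fold higher, beside 8.47% of all kept entries. These 3 were under 1 RPKM in Dnmt1+/+ MEFs and passed the filter on low values only through the Dnmt1-/- library. Among kept entries they therefore had to be higher there. Sohlh2 was at 0.0548 and 21.2 RPKM, Stag3 at 0.544 and 7.48 RPKM, and Tex101 at 0 and 3.31 RPKM. Mael and Hormad1 were listed at 0 in both libraries. Ddx4, which marks germ cells in general, was at 0.00901 and 0.0218 RPKM, and Dazl was at 0 and 0.119 RPKM. Taf7l was at 0.387 and 0.596 RPKM, and Tdrd1 at 0 and 0.0204 RPKM. Sycp3 went the other way, at 0.338 RPKM in Dnmt1+/+ and 0.0543 RPKM in Dnmt1-/- MEFs. Rpl39l and Rps4y2 were each above the sum of the whole list in Dnmt1-/- MEFs.

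Of the remaining paralogs, all but Rpl3l were at 26.4 RPKM or more in both libraries. Rps27l, known as a gene that p53 can induce, was at 62.4 and 79.8 RPKM and exceeded its partner Rps27, at 43.3 and 30.4 RPKM. Its part of the pair was 59.0% in Dnmt1+/+ and 72.4% in Dnmt1-/- MEFs, and both lines lack p53. Rpl22l1 was at 26.4 and 30.3 RPKM beside Rpl22, an RNA-binding protein of the large subunit, at 382.8 and 250.6 RPKM, so its part was 6.45% and 10.8%. Rpl7l1 was at 44.3 and 42.9 RPKM, 7.83% and 10.1% of its pair with Rpl7. Rpl36al and Rpl36a kept nearly the same ratio, with Rpl36al at 197 and 218 RPKM and at 44.5% and 44.2% of the pair. The genes of a pair differ in how many 50-base words of their coding sequence occur elsewhere in the genome. The figure was 100% for Rps27 and 49.0% for Rps27l, and 100% for Rpl36a and 81.6% for Rpl36al. It was 30.8% for Rpl22 and 81.9% for Rpl22l1, and 77.6% for Rpl7 and 22.3% for Rpl7l1. The part of shared reads in these proportions was not tested. Rpl3l, the form of Rpl3 used in striated muscle, was listed at 0 in both libraries with the status NOTEST, which does not show that it is absent, while Rpl3 was at 659 and 406 RPKM. In the pairs of Rps27l, Rpl22l1 and Rpl7l1 the log2 ratio of paralog to partner was higher in Dnmt1-/- MEFs by 0.86, 0.81 and 0.40, and in these pairs the partner was lower while the paralog changed by between -0.04 and 0.35.

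**Figure D3:**
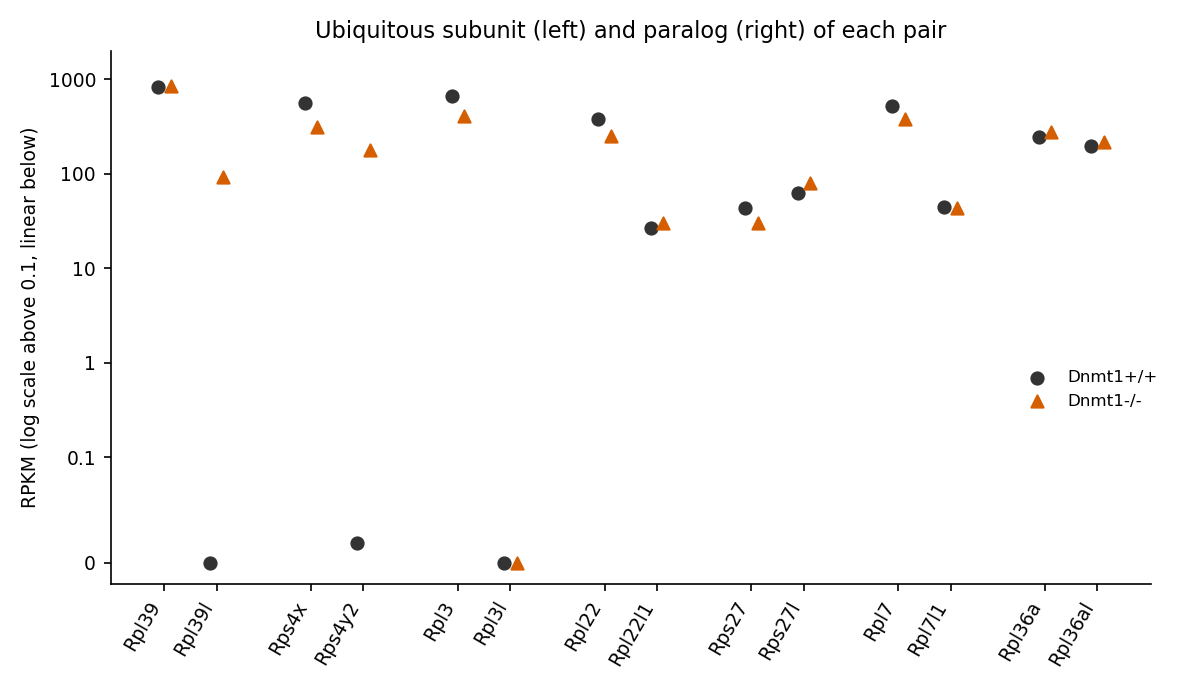
RPKM of each ubiquitous subunit (left of each pair) and its paralog (right), with circles for Dnmt1+/+ and triangles for Dnmt1-/- MEFs, on an axis that is logarithmic above 0.1 RPKM and linear below. Rpl39l and Rps4y2 go from 0 and 0.0190 RPKM to 92.7 and 176.5 RPKM, Rpl3l is listed at 0 in both, and the other paralogs differ little between the libraries.

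Promoters were compared because CpG sites are where Dnmt1 acts and because ribosomal protein genes are known for transcripts that begin with a run of pyrimidines. In the RefSeq windows of 300 bases around each start (250 before and 50 after, GRCm38.p6), which matched 63 of the 84 members, the median number of CG dinucleotides was 21, against 7 over all 27025 promoters. Rpl39l had 17, the same number as Rpl39, and the muscle paralog Rpl3l had the fewest of the matched members, 2. The 120 bases up to each start of the first pair follow, 5′ to 3′ on the gene's strand, with every CG in capitals, 9 in each.
Rpl39l, chr16:10170108-10170227 on the plus strand: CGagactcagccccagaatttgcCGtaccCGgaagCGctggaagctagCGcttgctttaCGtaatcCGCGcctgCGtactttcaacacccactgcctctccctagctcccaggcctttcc
Rpl39, chrX:37085223-37085342 on the minus strand: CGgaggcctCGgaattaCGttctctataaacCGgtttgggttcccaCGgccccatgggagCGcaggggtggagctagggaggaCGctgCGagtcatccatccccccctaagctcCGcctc
No methylation values were analysed here.

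An unbroken run of at least 8 C or T bases on the gene's strand, within 20 bases on either side of the start, was present in 28 of the 63 matched members (44.4%) and in 15.9% of all promoters. The longest runs of some members are shown in capitals, each within 28 bases of that stretch, because the runs differ widely in length.
Rpl7a, chr2:26910789-26910816 on the plus strand: acaaTTCCCTCTTCTTTCTTTCTCCagc
Rps27, chr3:90213633-90213660 on the minus strand: tccgctttcgCTCCTTTCCggcggtgac
Rpl22l1, chr3:28805500-28805527 on the plus strand: gcaagcccgTTCTCTTCCCacggctgca
Rpl39l, chr16:10170210-10170237 on the plus strand: tagctcccaggCCTTTCCggatttccgg
Rpl12, chr2:32961702-32961729 on the plus strand: agcaggatccgTCTTTTCggctttcggc
The run reaches 21 bases in Rpl7a, 9 in Rps27, 10 in Rpl22l1, and 7 in Rpl39l and Rpl12. Canonical genes with such a run had a median change of -0.44 (26 genes), and those without it -0.43 (30 genes). A run of these letters is a description of the window and not a mapped transcript start.

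Ribosomal protein genes have many processed copies in the genome, and how the reads that match several places were assigned is not given in the sources used here. For 75 canonical genes the coding sequence was cut into words of 50 bases, and every exact match elsewhere in NCBIM37 was counted. A match was found for 74 of the 75, at a median of 10 other places, and for 28 genes every word occurred elsewhere. Rpl7a matched 129 other places, Rpl29 90, Rpl21 86, Rps2 78 and Rpl17 57. These include the 3 genes with the lowest RPKM in Dnmt1+/+ MEFs, Rpl21, Rpl7a and Rpl29, and the 3 lowest in Dnmt1-/- MEFs, Rpl7a, Rpl21 and Rpl17, while Rps2, with 78 places, was at 394.6 RPKM. Across the 75 genes the number of places and the RPKM had a Spearman correlation of -0.30 in Dnmt1+/+ and -0.34 in Dnmt1-/- MEFs, and the number of places and the change had one of -0.05. The 21 genes with 0 to 5 other places were all lower in Dnmt1-/- MEFs, with a median change of -0.46. The 41 genes with 6 to 19 places had a median of -0.41, and the 13 with 20 or more had -0.43. These groupings were chosen after seeing the data, and the part of shared reads in the changes was not tested.

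**Figure D4:**
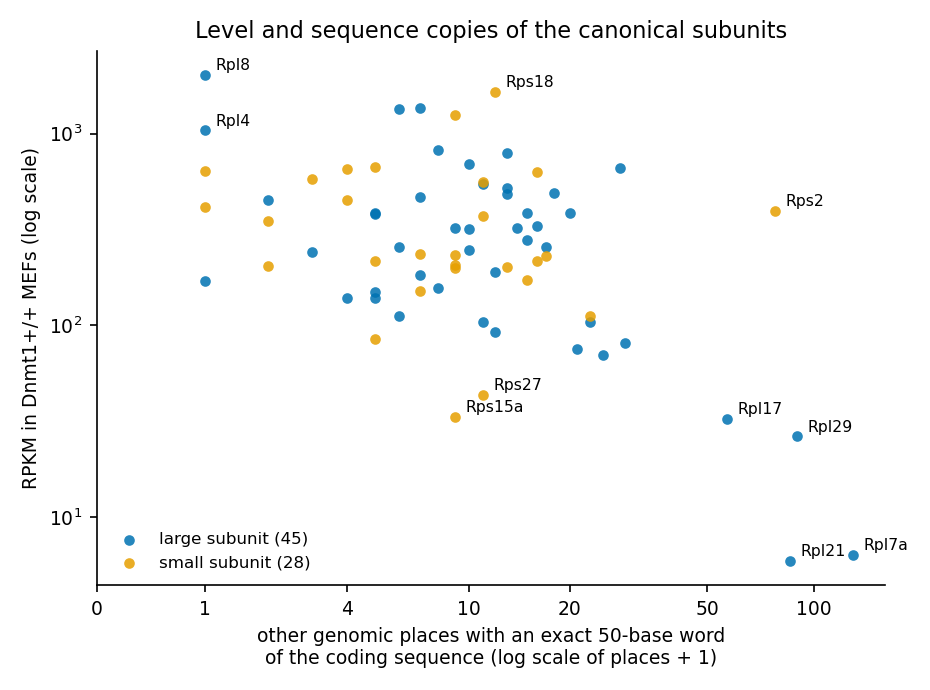
RPKM in Dnmt1+/+ MEFs (y axis, log scale) against the number of other genomic places that hold an exact 50-base word of the coding sequence (x axis, log scale of places + 1). Points are 45 large-subunit genes and 28 of the 30 small-subunit genes with a coding sequence in the reference. Rpl7a, Rpl21 and Rpl29, the lowest of all, lie at 86 to 129 places, while Rps2 with 78 places lies among the abundant genes.

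Among canonical subunits the change went with the length of the coding sequence. The 27 genes with over 550 coding bases were all lower, with a median of -0.54, whereas the 33 genes of over 350 and up to 550 bases had a median of -0.32 and the 15 genes of up to 350 bases one of -0.31. The Spearman correlation of coding length and change was -0.46 across 75 genes. It was -0.10 over 10708 kept entries, -0.07 over 549 other entries with a mean of at least 100 RPKM and -0.16 over 76 mitochondrial ribosomal entries. Canonical genes that hold a small nucleolar RNA gene within them, 29 genes with 55 such RNAs, had a median change of -0.53, and the 46 without had -0.33. These genes share both libraries, and the values are descriptions with no test.

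Other lists of genes for protein synthesis had medians nearer 0 than the canonical subunits. The 77 kept entries for mitochondrial ribosomal proteins, which form the separate ribosome of that organelle, had a median change of 0.05, and 36 of them were lower. Mrpl36 was the only one past 2-fold, at 6.82 and 16.1 RPKM. The 48 kept entries for ribosome assembly factors had a median of 0.06 with 0 past 2-fold, although Npm1, an abundant nucleolar protein, was at 1202 and 830 RPKM (-0.53). The 12 kept genes of RNA polymerase I, which transcribes ribosomal RNA, had a median of -0.04. The 36 kept entries listed as translation factors had a median of -0.16, with 22 lower and 14 higher. Their list also held Nap1l1, Tpt1 and more than 1 entry of Eef1e1. The summed level of these 36 was 0.804 times that in Dnmt1+/+ MEFs, beside 0.770 for the canonical subunits. Eef1a1, the most abundant of them, was at 5568 and 3742 RPKM (-0.57), and Eef2 at 1692 and 1224 RPKM (-0.47). Eif2s2, a subunit of the factor that brings the initiator transfer RNA, was at 122.7 and 56.7 RPKM (-1.11). Pabpc4 was at 34.4 and 16.8 RPKM (-1.03), and Eif3b at 143 and 251 RPKM (0.81). Among 17 kept regulators of growth the median was -0.13. Of these, Eif4ebp1, which restrains cap-dependent translation, was at 158.9 and 71.9 RPKM (-1.14), and Myc, which activates ribosomal protein genes, was at 36.1 and 48.5 RPKM (0.42).

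**Figure D5:**
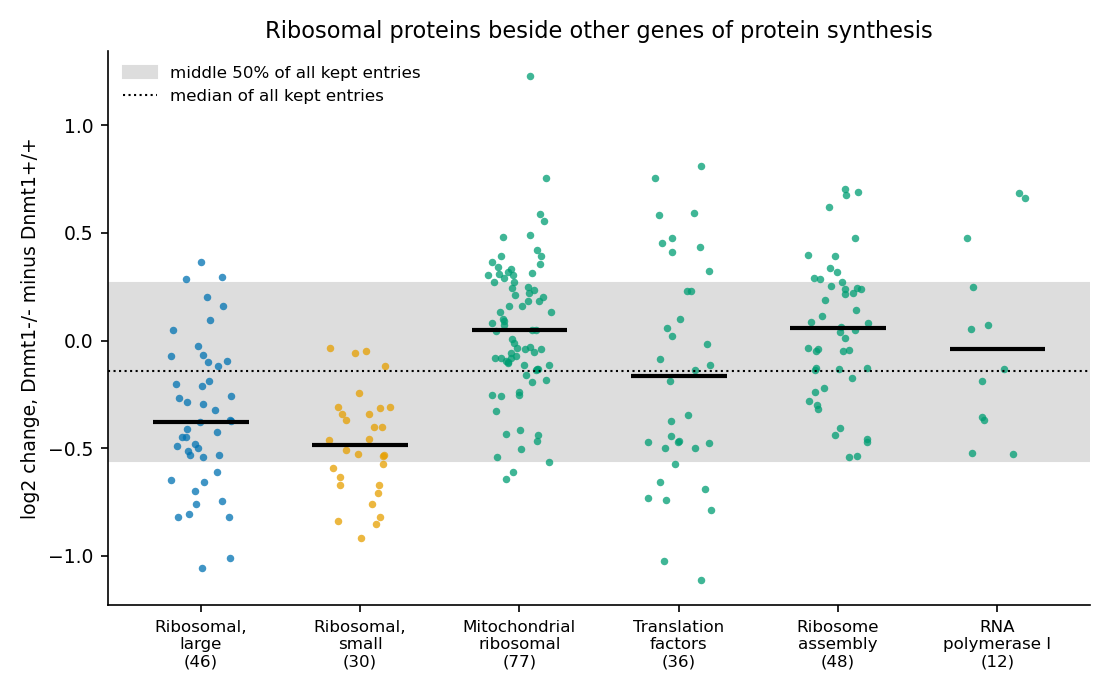
Change on the log2(RPKM + 0.1) scale, Dnmt1-/- minus Dnmt1+/+, of each kept entry (points) in 6 lists. A black bar marks each list's median, a grey band the middle 50% of all kept entries and a dotted line their median. The bars of the large and small subunit lie at -0.38 and -0.49, and those of the other lists between -0.16 and 0.06.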

How the data were processed

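Strand-specific mRNA-seq was performed on 1 library each of Dnmt1+/+ and Dnmt1-/- MEFs, with single-end reads of 50 bases. The authors used Tophat for mapping to mm9 and Cufflinks for assembly, and deposited RPKM values from Cuffdiff, 1 column per library. Program versions, scaling between libraries, use of strand in counting and the treatment of reads that match several places are not given in the sources used here, so overlapping and near-identical genes are uncertain. The deposited RPKM values carry no counts, so the depth behind a value is unknown. Samples were grouped by the genotype in their labels.

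Changes were differences of log2(RPKM + 0.1), described against a 2-fold threshold beside all 11244 kept entries, with no test. Canonical subunits, paralogs, gene lists and markers were chosen with earlier results of these data known, and the groupings by copies, length, small nucleolar RNA genes and promoter runs were chosen after seeing the data. Genes were named by rule: all paralogs with their partners, the 5 largest changes of canonical genes in each direction, the 3 highest and 3 lowest levels, members past 2-fold or without status OK, the stalk genes, Rps6, Rpl5, Rpl11, the subunits outside the naming rule, and in each list the genes past 2-fold and the largest change in each direction. Some genes covered by this rule are not reported here, by name or in the plots that label genes. Others, such as Rps25, Rpl10 and Rpl17, were named after their values were seen.

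Gene models and coding sequences came from GENCODE M1 on NCBIM37, using the lowest-numbered transcript with a complete reading frame. Words within 2000 bases of each other counted as 1 place. Locus starts in the table equalled annotated exon starts after adding 1 (10294 against 860 as written), so 1 was added. Promoter windows came from RefSeq on GRCm38.p6, and no coordinate was converted between builds. The alternatives were pseudocounts of 1 and 0.01, the median change subtracted, the mean RPKM used as the filter or no filter at all, any status, entries with 1 symbol, canonical genes alone and a 1.5-fold threshold. The calculation was tested on simulated data. Python 3.11.15 was used with numpy 2.4.6, pandas 2.3.3, Biopython 1.88 and matplotlib 3.10.9.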

Additional observations from a re-analysis of the deposited data

How the results depend on the processing

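The median change of the 83 kept ribosomal protein entries was -0.38, with 2 past 2-fold higher and 2 lower. Subtracting the median change of all kept entries gave a median of -0.24 and 0 entries past 2-fold lower. A pseudocount of 1 left 1 entry lower. The 76 canonical genes alone left 0 higher. A threshold of 1.5-fold gave 21 lower. The 21 canonical genes with 0 to 5 other genomic places, a setting chosen after seeing the data, had 0 higher and 0 lower with a median of -0.46. The other 24 alternatives for these values and for the share of summed RPKM stayed within 0.1 log2 for the median, 1.5 times for a count and 1 percentage point for the share. Among single genes, Rpl12 came to -0.91 and Rpl7a to -0.87 after subtraction of the median, and Rpl7a to -0.84 with a pseudocount of 1, which put both inside 2-fold, while Rpl7l1 and Rps18 turned to 0.10 and 0.09 after subtraction of the median. No direction was reversed for an entry past 2-fold, but these alternatives could not have reversed a change of that size. No paired analysis was possible because each genotype has 1 library, and for the same reason no replicate could be left out. The unknown depth, the reads shared with processed copies and the single line per genotype limit every value.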
